A study of Homo sapiens with 18 samples.

Results

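Potassium channel genes were taken from an RNA-seq table of SH-SY5Y, a human neuroblastoma cell line that takes on neuron-like features when differentiated. The members were the symbols made of KCN, a subfamily letter code and a number, and 95 of the 26372 symbols in the table met that rule. The 18 other symbols beginning with KCN, such as antisense transcripts and KCNRG, were not members. Each symbol gave 1 value per library in FPKM, a fragment count normalised for the length of the transcript and for the mapped depth of the library, which allows levels of different genes to be set side by side.

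The cells carried lentiviral ZNHIT3, built in the FUGW plasmid, as the wild-type sequence (WT), as the C14R variant or as a short deletion, and were sampled at day 0 or at day 18 of differentiation. Each of the 6 groups of construct and day held 3 libraries, 18 in all. Cells were grown with serum before differentiation, per the labels' protocols, and day 18 cells had been kept without it from 48 hours after infection on, with BDNF at 50 ng/ml, all-trans retinoic acid at 10 μM, dibutyryl cyclic AMP at 2 mM and KCl at 20 mM. All 18 libraries came from infected cells of 1 line, the line's own ZNHIT3 was not stated to be removed, and no library of uninfected cells was analysed here. The treatment labels of the deletion read 251-254 in replicate 1, 251-255 in replicate 2 and 251-256 in replicate 3, and the titles call these samples depleted. Nothing in the labels says that replicates came from separate cultures, so p-values measure the spread between these libraries, which may be technical. Day, medium and added agents changed together and cannot be told apart.

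Potassium channels let potassium leave the cell along its gradient, which sets the resting potential, ends the action potential and limits repetitive firing. Voltage-gated pores of the KCNA to KCND, KCNQ and KCNH subfamilies open on depolarization, the silent KCNF, KCNG, KCNS and KCNV subunits form channels only together with other voltage-gated subunits, inward rectifiers (KCNJ) and two-pore leak channels (KCNK) act near rest, and KCNM, KCNN and KCNT pores respond to calcium or sodium. Auxiliary subunits (KCNAB, KCNE, KCNIP, KCNMB) bind the pores and alter their gating or their delivery to the membrane. Neuroblastoma lines are known for ERG currents, carried by KCNH2 and its relatives, and sympathetic neurons for the M-current, carried by KCNQ channels such as KCNQ3 and KCNQ5.

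The differentiation medium held a cyclic AMP analog and retinoic acid, so the promoters of the members were read for the letters that CREB and nuclear receptors are known to bind. RefSeq promoters on GRCh38.p14, from 250 bases before to 50 bases after a start, were found by symbol for 71 of the 95 members, with 109 promoters in all. The 4 windows printed here belong to the genes with exactly 1 promoter in the table among the 9 members with the largest day 18 differences, which are described further on. Each line gives the 200 bases before the start, 5′ to 3′ on the gene's strand, and capitals mark the cyclic AMP core motif TGACG or its reverse complement CGTCA. The windows lie at chr2:26692522-26692721 on the plus strand (KCNK3), chr12:21774707-21774906 on the minus strand (KCNJ8), chr6:72621864-72622063 on the plus strand (KCNQ5) and chr17:63523158-63523357 on the plus strand (KCNH6).
KCNK3: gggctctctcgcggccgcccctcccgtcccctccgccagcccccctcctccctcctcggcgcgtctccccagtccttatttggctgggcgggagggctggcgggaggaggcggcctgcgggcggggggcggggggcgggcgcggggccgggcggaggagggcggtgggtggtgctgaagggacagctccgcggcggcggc
KCNJ8: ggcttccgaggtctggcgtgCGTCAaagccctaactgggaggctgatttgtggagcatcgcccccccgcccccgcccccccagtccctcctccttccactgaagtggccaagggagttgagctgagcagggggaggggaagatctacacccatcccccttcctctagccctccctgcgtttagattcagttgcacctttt
KCNQ5: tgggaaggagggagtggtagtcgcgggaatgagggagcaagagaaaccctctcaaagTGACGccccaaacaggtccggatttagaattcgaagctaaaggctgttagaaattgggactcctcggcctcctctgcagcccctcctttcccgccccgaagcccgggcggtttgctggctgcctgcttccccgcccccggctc
KCNH6: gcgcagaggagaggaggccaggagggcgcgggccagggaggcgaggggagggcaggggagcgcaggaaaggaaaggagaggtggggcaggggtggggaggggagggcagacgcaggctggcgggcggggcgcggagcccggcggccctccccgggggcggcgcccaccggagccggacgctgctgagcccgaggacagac

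In KCNJ8 the motif began 180 bases before the start and in KCNQ5 143 bases before it, and neither KCNK3 nor KCNH6 had these letters in its window. Over both strands, TGACG was found in 16.5% of the 109 member promoters and in 24.6% of the 35116 promoters of the table. The full cyclic AMP response element TGACGTCA, which contains TGACG, occurred in 1 member promoter (0.917%) against 1.85% of all promoters. AGGTCA, the letters bound by nuclear receptors such as those for retinoic acid, stood in 7.34% of member promoters and in 13.8% of all. For the 16 members with a promoter entry that were higher at day 18 in WT, with 25 promoters, the shares were 24.0% for TGACG, 0% for TGACGTCA and 4% for AGGTCA. Member promoters had a median GC content of 64.0%, those of the higher members 71.3% and all promoters 58.7%. A match describes letters in a window and is not evidence of a bound site.

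ZNHIT3 itself was measured first. At day 0 its FPKM values were 542, 541 and 531 in WT, 419, 432 and 421 in C14R, and 306, 310 and 292 in the deletion; at day 18 they were 1193, 1164 and 1103, then 600, 756 and 604, and then 298, 313 and 294. The constructs did not overlap on either day. Relative depth, read from the step that 1 fragment adds to low values, was 59.1% to 84.7% of the deepest library at day 0 and 82.4% to 100% at day 18, while absolute depth is unknown. The most frequent step held 3.94% to 7.36% of the low values at day 0 and 10.1% to 17.6% at day 18 outside the reference library, so day 0 depths are approximate. Summed FPKM ran from 5.535e+05 in C14R day 18 replicate 1 to 2.222e+06 in WT day 0 replicate 1. The first principal component, with 86.9% of the variance, separated the days. On the second, the C14R day 18 library of replicate 1 lay at 24.79 and the other 17 between -8.27 and 9.27. The calls of members in C14R are therefore also given without that library. The log2 differences given for C14R include it unless stated otherwise. Summed markers of neurons lay between 1014 and 1065 FPKM at day 0 and between 2049 and 2215 at day 18, and those of sympathetic neuroblastoma between 976 and 1066 and then between 2150 and 2404, although TH, which defines catecholamine synthesis, did not exceed 1.02. Fibroblast and mesenchymal markers summed to 415 to 442 and then 111 to 133, and cycling markers to 238 to 269 and then 94.2 to 123. Glial markers summed to 3.15 to 4.83 and then 7.52 to 9.34, with 5 of 7 under 1 in every library, and blood and endothelial markers to 5.54 to 7.03 and then 1.14 to 2.33, with 3 of 4 under 1. The part of these shifts in the channel results was not tested, and in bulk RNA a change in the number of cells of a type and a change in RNA per cell cannot be told apart.

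Potassium channel RNA was more abundant at day 18 in every construct. Summed over the 95 members, FPKM lay between 199.7 and 214.4 in the 9 day 0 libraries and between 298.6 and 327.6 in the 9 day 18 libraries, with no overlap. The KCNQ sum went from a mean of 27.2 to 59.2 FPKM, the inward rectifiers from 20.1 to 42.8, the voltage-gated KCNA to KCNG, KCNS and KCNV group from 23.2 to 43.1 and the two-pore channels from 20.0 to 36.3. Smaller differences were seen for KCNH (52.4 to 61.7), auxiliary subunits (33.1 to 38.4) and calcium- and sodium-activated pores (30.5 to 33.9). These sums are levels with no test.

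**Figure D1:**
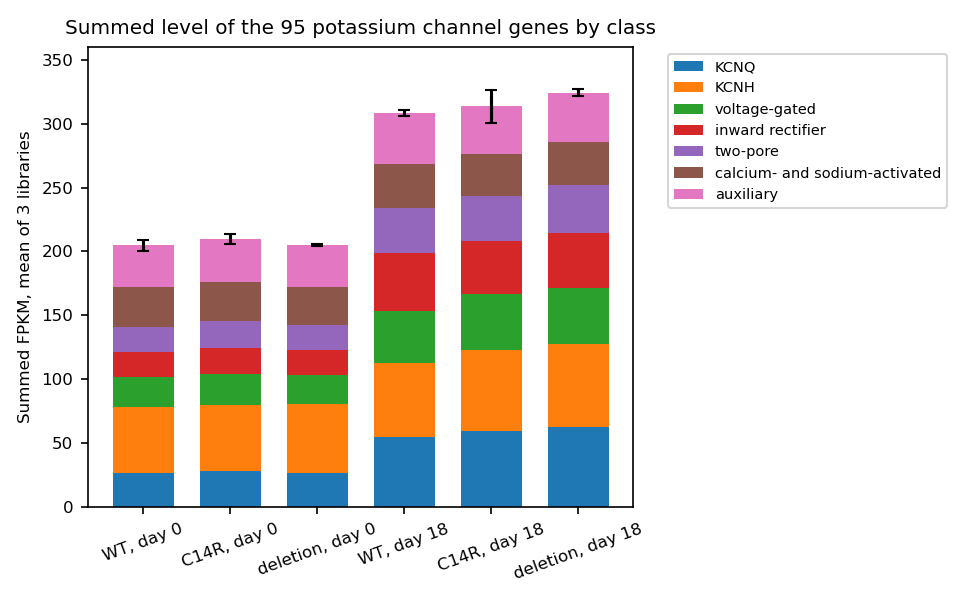
Stacked bars give the FPKM summed over the members of each channel class, as the mean of 3 libraries, for the 6 groups of construct and day (x axis), and error bars the SD of the total over the 3 libraries. Totals sit near 205 to 210 at day 0 and between 308 and 324 at day 18, and the KCNH share shrinks while the KCNQ, inward rectifier and two-pore shares grow.

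Most members were at or near 0. Mean FPKM over all libraries was at least 10 for 7 members, at least 1 for 37 and under 0.1 for 30, of which 6 (KCNA5, KCNC2, KCND2, KCNK16, KCNU1 and KCNV1) were listed at 0 throughout. Tests covered the 37 members with a mean of at least 1 and left out 58. Of the 37, 35 reached 1 on both days, and KCNH6 and KCNK9 did so at day 18 alone, so they passed the minimum through the group where they were high. KCNK10 and KCNN3, at day 18, and KCNK13, at day 0, reached 1 on one day but not in the mean and are described with the scarce members.

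Differentiation was compared as day 18 against day 0 within each construct, on log2(FPKM + 1), a scale that understates changes of scarce genes, and a call means a Benjamini-Hochberg adjusted p under 0.05 over all 13785 genes tested. In WT, 26 of the 37 members were higher, 4 were lower and 7 did not pass, where 38.2% of all genes were higher and 34.0% lower. In C14R, 25 were higher, 6 lower and 6 did not pass, with 37.9% and 35.0% of all genes, and in the deletion 27, 5 and 5, with 38.6% and 34.4%. Median log2 differences of the members were 0.51 in WT, 0.53 in C14R and 0.61 in the deletion, against 0.03, 0.02 and 0.03 for all genes. Of the called members in WT 86.7% were higher, against 52.9% of all called genes, and after leaving out small RNA genes and rescaling these shares were 88.2% and 68.7%. Across the 3 constructs, which share no libraries here, 25 members were higher in all 3. Lower in all 3 were 4, namely KCNMA1, KCNAB1, KCNH2 and KCNT1. A further 4 passed in 1 or 2 constructs, 4 in none, and 0 were called in opposite directions. The share of all genes called the same way in all 3 constructs was not counted, so these counts have no background beside them. Without the C14R day 18 library of replicate 1, C14R had 23 members higher and 4 lower, since KCNAB3, KCNG3, KCNIP1 and KCNK1 no longer passed. After leaving out small RNA genes and rescaling, KCNT1 and KCNK1 no longer passed in the deletion.

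With a log2 difference of at least 1 required as well, 8 members were higher and 1 lower in WT, against 7.27% and 6.79% of all genes. C14R had 9 higher and 1 lower (7.27% and 6.64% of all genes), and the deletion 11 and 1 (7.66% and 6.74%). Among those higher in WT were KCNK3, KCNH7, KCNJ8, KCNIP2, KCNQ5, KCNJ9 and KCNH6, and the 1 lower was KCNMA1. These genes were fully separated between days in all 3 constructs.

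**Figure D2:**
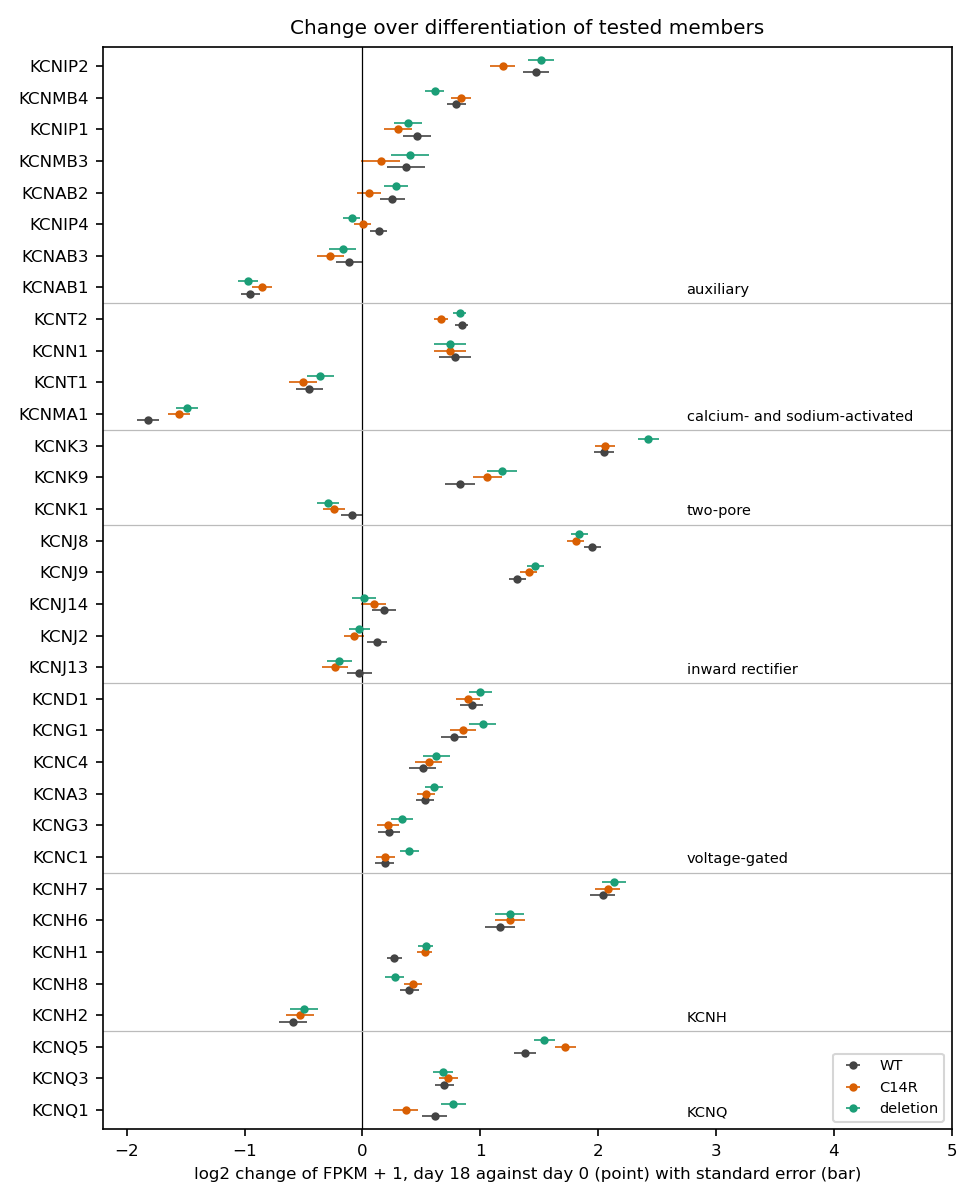
Points give the log2 difference of FPKM + 1 between day 18 and day 0 (x axis) for 34 of the 37 tested members (y axis, grouped by class), with 1 colour per construct and bars of 1 standard error. The KCNQ and voltage-gated members shown all lie above 0 and KCNMA1, KCNAB1, KCNH2 and KCNT1 lie below 0 in each construct.

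The 8 tested members of the voltage-gated KCNA to KCNG group were higher at day 18 in all 3 constructs. KCNA3, which encodes Kv1.3, read 3.81, 3.93 and 4.05 FPKM in WT, 4.09, 4.17 and 3.82 in C14R and 3.29, 3.89 and 3.44 in the deletion at day 0. Its day 18 values were 5.83, 6.02 and 6.56 in WT, 6.39, 7.003 and 5.59 in C14R and 6.40, 5.84 and 5.52 in the deletion. The ranges of the days were separate, and KCNA3 rose by 0.53 on the log2 scale in WT (SE 0.08, adjusted p = 9.2e-06), 0.54 in C14R and 0.61 in the deletion.

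KCND1, which encodes Kv4.1, a subunit of A-type channels that inactivate quickly, was at 1.71, 1.65 and 1.11 FPKM in WT, 1.67, 1.66 and 1.49 in C14R and 1.97, 1.60 and 1.58 in the deletion at day 0. It reached 3.51, 3.94 and 3.66 in WT, 3.40, 4.39 and 3.82 in C14R and 4.52, 4.44 and 4.30 in the deletion at day 18. KCND1 was the only Kv4 gene with a mean of at least 1, since KCND2 was listed at 0 and KCND3 did not exceed 0.0602. Its log2 difference was 0.93 in WT (SE 0.10, adjusted p = 2.11e-07), 0.90 in C14R and 1.00 in the deletion. KCNG1 encodes a silent subunit that alters the channels of other subunits, and read 1.61, 1.64 and 1.46 in WT, 1.69, 2.39 and 1.82 in C14R and 2.04, 2.15 and 1.58 in the deletion at day 0. At day 18 KCNG1 was at 3.32, 3.56 and 3.35 in WT, 3.53, 4.68 and 4.90 in C14R and 5.49, 4.59 and 4.65 in the deletion. The days were separate in each construct, with log2 differences of 0.78 in WT (SE 0.11, adjusted p = 6.89e-06), 0.85 in C14R and 1.02 in the deletion. KCNC4, a Kv3 gene, rose from a mean of 1.01 to 1.99 FPKM over the constructs (log2 difference 0.51 in WT). The smallest differences of the group belonged to KCNG3 (0.22 in WT) and KCNC1 (0.19 in WT), whose WT libraries overlapped between days and whose calls in WT and C14R were lost under several alternatives.

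All 4 tested KCNQ genes were higher at day 18 in all 3 constructs. KCNQ3, a subunit of the classical M-channel, was at 0.959 to 1.20 FPKM on day 0 and 2.19 to 2.91 on day 18, and rose by 0.70, 0.73 and 0.68 on the log2 scale in WT, C14R and the deletion.

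KCNQ5, a further M-channel subunit (chr6:72621792-73198851, GENCODE 29), was at 3.11, 3.13 and 3.87 FPKM in WT, 2.97, 2.99 and 3.49 in C14R and 3.47, 3.29 and 3.40 in the deletion at day 0. It read 9.94, 10.5 and 10.6 in WT, 14.7, 11.1 and 12.3 in C14R and 12.5, 10.8 and 12.1 in the deletion at day 18. All day 18 libraries exceeded all day 0 libraries, and the highest was the C14R library of replicate 1. KCNQ5 rose by 1.38 in WT (SE 0.09, adjusted p = 3.19e-10), 1.72 in C14R and 1.54 in the deletion on the log2 scale. KCNQ1, best known for the slow cardiac repolarizing current, lay between 1.75 and 2.58 FPKM at day 0 and between 2.98 and 4.51 at day 18, with log2 differences of 0.61, 0.37 and 0.77.

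Within the KCNH class, which holds the EAG, ERG and ELK channels, the genes moved in different directions. KCNH2 encodes ERG1 and was the most abundant member at day 0, with 32.8, 32.9 and 30.6 FPKM in WT, 31.1, 34.3 and 27.9 in C14R and 36.6, 30.4 and 35.0 in the deletion. At day 18 KCNH2 read 20.7, 23.7 and 18.9 in WT, 16.5, 24.6 and 23.2 in C14R and 24.7, 24.3 and 22.5 in the deletion. Every day 18 value lay under every day 0 value, and the lowest of all was the C14R library of replicate 1. KCNH2 fell by 0.59 in WT (SE 0.12, adjusted p = 0.000234), by 0.53 in C14R and by 0.49 in the deletion on the log2 scale, and its part of the KCNH sum went from 61.8% to 35.8%.

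The 2 other ERG genes rose. KCNH7, which encodes ERG3 (chr2:162371407-162838730), was at 1.63, 1.98 and 2.50 FPKM in WT, 2.17, 2.37 and 2.34 in C14R and 2.15, 1.85 and 2.34 in the deletion at day 0. At day 18 it read 9.49, 13.2 and 11.8 in WT, 12.6, 13.0 and 13.2 in C14R and 13.2, 12.5 and 12.3 in the deletion. The KCNH7 mean over constructs was 5.75 times the day 0 mean, the largest ratio among the tested members, with log2 differences of 2.04 in WT (SE 0.10, adjusted p = 1.17e-11), 2.08 in C14R and 2.14 in the deletion. KCNH6, which encodes ERG2 (chr17:63523334-63548977), read 1.01, 1.24 and 0.983 in WT, 0.716, 0.974 and 1.00 in C14R and 0.963, 0.919 and 0.946 in the deletion at day 0. Its day 18 levels were 3.53, 3.94 and 3.55 in WT, 2.49, 4.30 and 3.95 in C14R and 3.65, 4.07 and 3.17 in the deletion. The lowest day 18 library was again C14R replicate 1, still above all day 0 libraries, and KCNH6 differed by 1.17 in WT (SE 0.13, adjusted p = 2.28e-07), 1.25 in C14R and 1.25 in the deletion. KCNH2 remained the most abundant ERG gene per length at day 18, at a mean of 22.1 FPKM against 12.4 for KCNH7 and 3.63 for KCNH6. KCNH1, the EAG1 gene, rose by 0.27 in WT, 0.53 in C14R and 0.54 in the deletion, and KCNH8, an ELK gene, by 0.40, 0.43 and 0.27.

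Of the 5 tested inward rectifiers, 2 rose strongly and 3 did not pass in any construct, although each of those 3 passed under some alternatives. KCNJ8 encodes Kir6.1, a pore of ATP-sensitive channels (chr12:21764955-21775581). It was at 5.27, 5.25 and 5.49 FPKM in WT, 4.96, 4.64 and 5.45 in C14R and 5.02, 6.38 and 5.12 in the deletion at day 0. Day 18 brought 23.7, 22.4 and 24.4 in WT, 19.9, 20.0 and 20.1 in C14R and 20.9, 22.0 and 23.8 in the deletion. The days lay far apart, and at day 18 the C14R libraries lay under all WT and deletion libraries. KCNJ8 rose by 1.95 in WT (SE 0.07, adjusted p = 1.6e-13), 1.81 in C14R and 1.84 in the deletion on the log2 scale, and made up 51.2% of the inward rectifier sum at day 18 against 26.2% at day 0. ABCC9, which encodes SUR2, the sulphonylurea receptor that joins Kir6.1, was at 7.65 FPKM in WT at day 0 and 8.04 at day 18, a log2 difference of 0.06 (adjusted p = 0.458).

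KCNJ9 encodes GIRK3, a G-protein-gated subunit (chr1:160081570-160090563), and read 3.07, 2.84 and 2.87 FPKM in WT, 2.95, 2.91 and 3.26 in C14R and 2.72, 2.71 and 2.94 in the deletion at day 0. At day 18 it was at 8.61, 9.64 and 8.10 in WT, 10.5, 8.78 and 9.97 in C14R and 9.39, 9.48 and 9.50 in the deletion. Both days held tight ranges with no overlap, and KCNJ9 rose by 1.31 in WT (SE 0.07, adjusted p = 2.42e-11), 1.41 in C14R and 1.46 in the deletion. KCNJ2, the classical inward rectifier Kir2.1, stayed between 4.57 and 6.26 FPKM over all 18 libraries, with a log2 difference of 0.12 in WT (adjusted p = 0.216). KCNJ13 had differences of -0.03, -0.24 and -0.20 and KCNJ14 of 0.18, 0.10 and 0.01, of which none passed. KCNJ13 passed in C14R under 7 alternatives, among them 2 other scalings, and KCNJ2 and KCNJ14 passed in WT after leaving out small RNA genes and rescaling.

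Two-pore channels contributed the largest log2 difference of the set. KCNK3 encodes TASK-1, an acid-sensitive leak channel (chr2:26692690-26733420), and read 3.99, 3.88 and 3.74 FPKM in WT, 4.12, 3.92 and 3.68 in C14R and 3.40, 2.94 and 3.63 in the deletion at day 0. The values at day 18 were 21.0, 18.7 and 18.0 in WT, 16.9, 20.1 and 21.4 in C14R and 24.3, 21.8 and 20.7 in the deletion. Between the highest day 0 library (4.12) and the lowest day 18 library (16.9) lay a wide gap. KCNK3 rose by 2.05 in WT (SE 0.09, adjusted p = 6.49e-13), 2.06 in C14R and 2.43 in the deletion, and its part of the two-pore sum went from 18.5% to 56.0%. KCNK9, the TASK-3 gene, lay between 0.167 and 0.671 FPKM at day 0 and between 1.18 and 2.08 at day 18, with log2 differences of 0.83, 1.06 and 1.18. KCNK1, the TWIK-1 gene, was the most abundant two-pore gene at day 0 with a mean of 12.7 FPKM and had a mean of 10.9 at day 18. The log2 difference of KCNK1 was -0.09 in WT (adjusted p = 0.388), -0.24 in C14R (adjusted p = 0.0271, lost without the C14R day 18 library of replicate 1) and -0.29 in the deletion (adjusted p = 0.01, lost without the deletion day 18 library of replicate 1). Both calls were also lost after leaving out small RNA genes and rescaling.

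**Figure D3:**
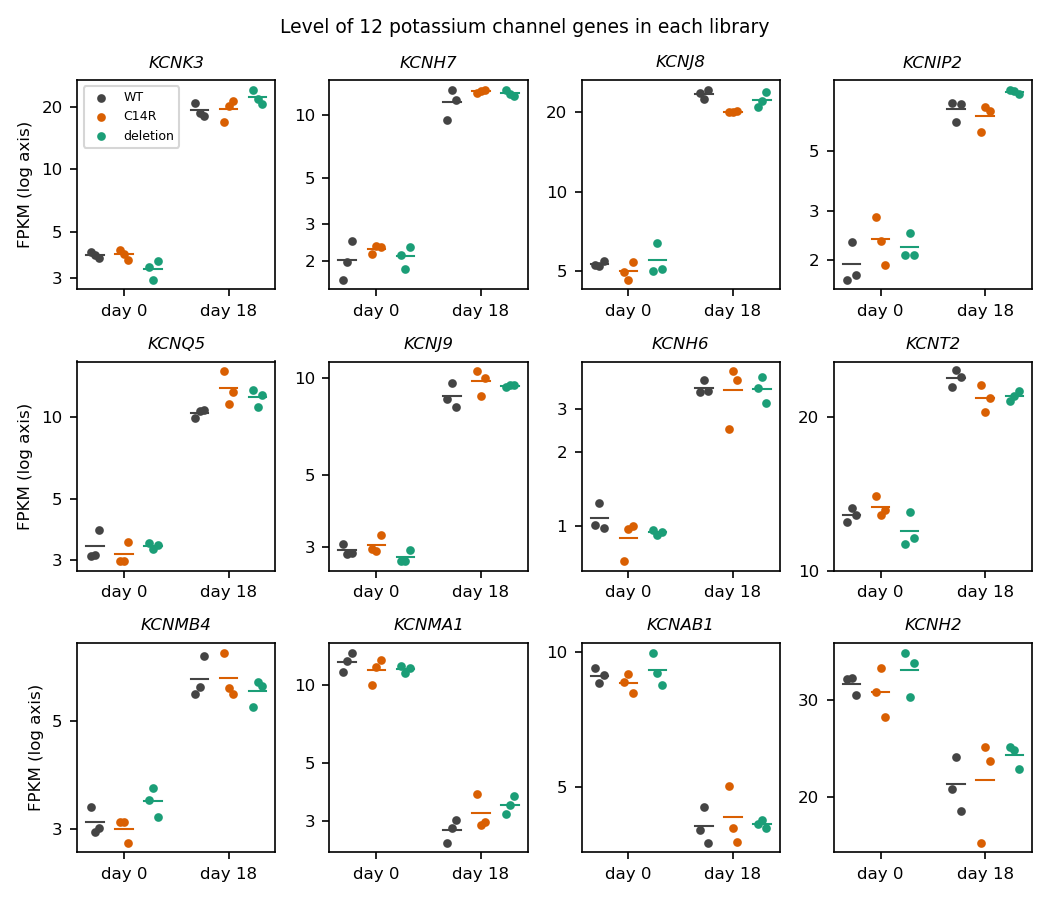
Each panel plots the FPKM of 1 gene on a log axis against day, with 1 point per library, 1 colour per construct and a line at the mean of 3 libraries. For 9 of the 12 genes all day 18 points lie above all day 0 points, and for KCNMA1, KCNAB1 and KCNH2 they lie below.

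Calcium- and sodium-activated pores split evenly, with 2 of the 4 tested higher and 2 lower in all 3 constructs. KCNMA1 encodes the BK channel, opened by calcium and voltage together (chr10:76869601-77638369), and read 11.2, 12.4 and 13.3 FPKM in WT, 10.0, 11.7 and 12.5 in C14R and 11.9, 11.1 and 11.6 in the deletion at day 0. Day 18 libraries held 2.47, 2.83 and 3.02 in WT, 3.82, 2.90 and 2.98 in C14R and 3.20, 3.45 and 3.76 in the deletion. The lowest day 0 library was at 10.0 and the highest day 18 library at 3.82. KCNMA1 fell by 1.82 in WT (SE 0.09, adjusted p = 1.26e-11), by 1.55 in C14R and by 1.49 in the deletion on the log2 scale, so that the mean over constructs at day 18 was 0.269 times that at day 0.

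Of the BK accessory subunits, KCNMB4 and KCNMB3 reached the minimum for testing. KCNMB4, the beta subunit best known from neurons, was at 3.34, 2.96 and 3.01 FPKM in WT, 3.10, 3.10 and 2.81 in C14R and 3.45, 3.65 and 3.18 in the deletion at day 0. It read 5.69, 5.88 and 6.81 in WT, 6.93, 5.85 and 5.69 in C14R and 5.35, 6.03 and 5.92 in the deletion at day 18. The days were separate, and KCNMB4 rose by 0.79 in WT (SE 0.08, adjusted p = 1.18e-07), 0.84 in C14R and 0.61 in the deletion. KCNMB3 had log2 differences of 0.37 in WT (adjusted p = 0.0507), 0.15 in C14R and 0.40 in the deletion (adjusted p = 0.0338). It passed in WT under 9 alternatives and was lost in the deletion under 6. KCNMB2, a scarcer beta subunit, had a mean of 0.612 FPKM at day 0 and 0.328 at day 18. In the fit with a minimum mean of 0.1 FPKM its log2 differences were -0.16 in WT (adjusted p = 0.229), -0.43 in C14R (adjusted p = 0.00387) and -0.25 in the deletion (adjusted p = 0.066). As levels per length, KCNMA1 was above KCNMB4 in every day 0 library and below it in every day 18 library.

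KCNT2 encodes Slick, a sodium-activated pore, and was at 12.5, 13.3 and 12.8 FPKM in WT, 14.01, 12.8 and 13.1 in C14R and 11.3, 13.0 and 11.6 in the deletion at day 0. Its day 18 values were 22.8, 24.7 and 24.0 in WT, 23.1, 20.4 and 21.8 in C14R and 21.5, 22.0 and 22.4 in the deletion. With no overlap between days, KCNT2 rose by 0.84 in WT (SE 0.06, adjusted p = 4.54e-10), 0.67 in C14R and 0.83 in the deletion. The related KCNT1, which encodes Slack, lay between 3.27 and 3.85 FPKM at day 0 and between 1.53 and 2.88 at day 18, and fell by 0.45, 0.50 and 0.36 on the log2 scale. KCNN1, the SK1 gene of small-conductance calcium-activated channels, read 1.62, 1.85 and 1.97 in WT, 1.56, 2.31 and 2.05 in C14R and 2.58, 2.49 and 1.56 in the deletion at day 0. At day 18 KCNN1 read 4.39, 3.90 and 3.32 in WT, 3.20, 4.15 and 4.65 in C14R and 4.55, 4.34 and 4.10 in the deletion, all above day 0. The log2 difference of KCNN1 was 0.79 in WT (SE 0.14, adjusted p = 5.63e-05) and 0.75 in both other constructs.

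Auxiliary subunits were the most mixed class, with 4 of the 8 tested higher, 1 lower and 3 not passing in WT. KCNIP2 encodes a calcium-binding KChIP partner of Kv4 channels (chr10:101825974-101843920), and read 1.69, 2.32 and 1.76 FPKM in WT, 2.86, 2.35 and 1.92 in C14R and 2.09, 2.51 and 2.07 in the deletion at day 0. At day 18 its values were 7.45, 6.37 and 7.42 in WT, 5.82, 7.21 and 6.98 in C14R and 8.35, 8.24 and 8.01 in the deletion. All day 18 libraries exceeded all day 0 libraries, and KCNIP2 rose by 1.47 in WT (SE 0.11, adjusted p = 1.48e-09), 1.19 in C14R and 1.52 in the deletion. KCNIP4, another KChIP gene, had 7.55, 8.48 and 7.39 in WT, 7.94, 7.77 and 8.23 in C14R and 7.64, 8.50 and 7.20 in the deletion at day 0. Its day 18 levels of 8.09, 9.05 and 8.91 in WT, 7.45, 8.82 and 7.76 in C14R and 6.93, 7.48 and 7.30 in the deletion overlapped those of day 0 in every construct. KCNIP4 had log2 differences of 0.14 in WT (SE 0.07, adjusted p = 0.0955), 0.00 in C14R and -0.09 in the deletion, and the signs in C14R and the deletion changed with the scaling. In WT the KCNIP4 difference was 0.32 and passed after leaving out small RNA genes and rescaling.

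KCNAB1 encodes a beta subunit that speeds the inactivation of Kv1 channels, and was at 9.18, 8.53 and 8.86 FPKM in WT, 8.57, 8.93 and 8.09 in C14R and 9.96, 8.96 and 8.45 in the deletion at day 0. It read 4.02, 4.52 and 3.77 in WT, 5.05, 4.06 and 3.78 in C14R and 4.16, 4.23 and 4.06 in the deletion at day 18. No libraries overlapped between days, and KCNAB1 fell by 0.95 in WT (SE 0.08, adjusted p = 1.45e-08), by 0.85 in C14R and by 0.97 in the deletion. KCNAB2 had log2 differences of 0.25, 0.06 and 0.28 and KCNAB3 of -0.11, -0.27 and -0.17. Their calls differed between constructs, but neither gene passed in the interaction of C14R or of the deletion with day, both taken against WT. The change over days was not tested between C14R and the deletion.

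Several of these genes share exonic bases with another annotated gene, and the use of strand in counting is not given in the sources used here, so their values are uncertain. Among the tested members the shared part reached 10% for 6 genes, namely 37.9% of KCNMB3 (with PIK3CA), 36.9% of KCNH1, 24.3% of KCNJ13 (with GIGYF2), 16.5% of KCNJ14, 12.2% of KCNIP2 (with its antisense transcript) and 10.8% of KCNJ8.

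The scarce members were fitted with the minimum set at a mean FPKM of 0.1, which added 28 members. In WT, 9 were higher and 6 lower, against 28.7% and 12.7% of the 3534 genes added by that minimum. C14R had 6 higher and 9 lower (25.7% and 14.1% of those genes), and the deletion 9 higher and 6 lower (28.8% and 13.4%). KCNE5, KCNJ5 and KCNS3 reached the minimum through day 18 and KCNN4 through day 0. The members called in all 3 constructs were KCNN3, KCNK10, KCNA2, KCNA7, KCNH3 and KCNS3, which were higher, and KCNK13, KCNS1, KCNV2, KCNJ12 and KCNJ3, which were lower. How many of the 3534 added genes were called the same way in all 3 constructs was not counted, so this list has no background beside it. Reads of KCNJ12 and its near-identical copy KCNJ18 may have been divided between them.

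KCNN3, the SK3 gene, was at 0.157, 0.229 and 0.193 FPKM in WT at day 0 and at 1.37, 1.77 and 1.84 at day 18. Over all constructs its day 0 libraries lay between 0.157 and 0.31 and its day 18 libraries between 1.37 and 1.84, and KCNN3 rose by 1.15 in WT (SE 0.08, adjusted p = 1.09e-09). KCNK10, which encodes the mechanically gated TREK-2, went from a range of 0.0934 to 0.157 to one of 0.951 to 1.39, a rise of 0.85 in WT. KCNA2, the Kv1.2 gene, lay between 0.0568 and 0.32 at day 0 and between 0.435 and 0.976 at day 18, and rose by 0.71 in WT. In the opposite direction, KCNK13, the THIK-1 gene, read 1.07, 0.965 and 1.26 in WT at day 0 and 0.126, 0.0492 and 0.211 at day 18. KCNK13 fell by 0.89 in WT (SE 0.09, adjusted p = 1.07e-07), and its ranges over all constructs were 0.965 to 1.31 and 0.0492 to 0.276.

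Unlike KCNG1 and KCNG3, the silent subunits KCNS1 and KCNV2 were lower at day 18. They had the highest mean over all libraries in the KCNS and KCNV subfamilies. This does not hold for all silent subunits of KCNS, since KCNS3 went from a mean of 0.0743 to 0.307 FPKM. At day 18 KCNS3 was above KCNS1, which had a mean of 0.242. KCNS1 was at 0.797, 0.85 and 0.779 FPKM in WT, 0.901, 0.749 and 0.564 in C14R and 0.828, 0.845 and 0.858 in the deletion at day 0. Its day 18 values were 0.11, 0.411 and 0.198 in WT, 0.262, 0.233 and 0.228 in C14R and 0.133, 0.335 and 0.269 in the deletion. The days did not overlap, and KCNS1 fell by 0.55 in WT (SE 0.09, adjusted p = 5.16e-05), by 0.48 in C14R and by 0.57 in the deletion. KCNV2, best known from photoreceptors, read 0.636, 0.642 and 0.492 in WT, 0.535, 0.476 and 0.461 in C14R and 0.323, 0.723 and 0.733 in the deletion at day 0. At day 18 KCNV2 read 0.176, 0.235 and 0.151 in WT, 0.0816, 0.102 and 0.182 in C14R and 0.178, 0.17 and 0.215 in the deletion, again without overlap. It fell by 0.42 in WT (SE 0.09, adjusted p = 0.00062), by 0.41 in C14R and by 0.41 in the deletion.

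The top members of the 3 remaining subfamilies were close to 0. KCNE2, a small beta subunit, ranged from 0.117 to 0.727 FPKM at day 0 and from 0 to 1.17 at day 18, with log2 differences of 0.26 in WT (SE 0.21, adjusted p = 0.279), -0.10 in C14R and 0.44 in the deletion. KCNF1, a silent subunit, ranged from 0 to 0.182 at day 0 and from 0 to 0.0575 at day 18 and was not tested. KCNU1, a channel known from sperm, was listed at 0 in every library.

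**Figure D4:**
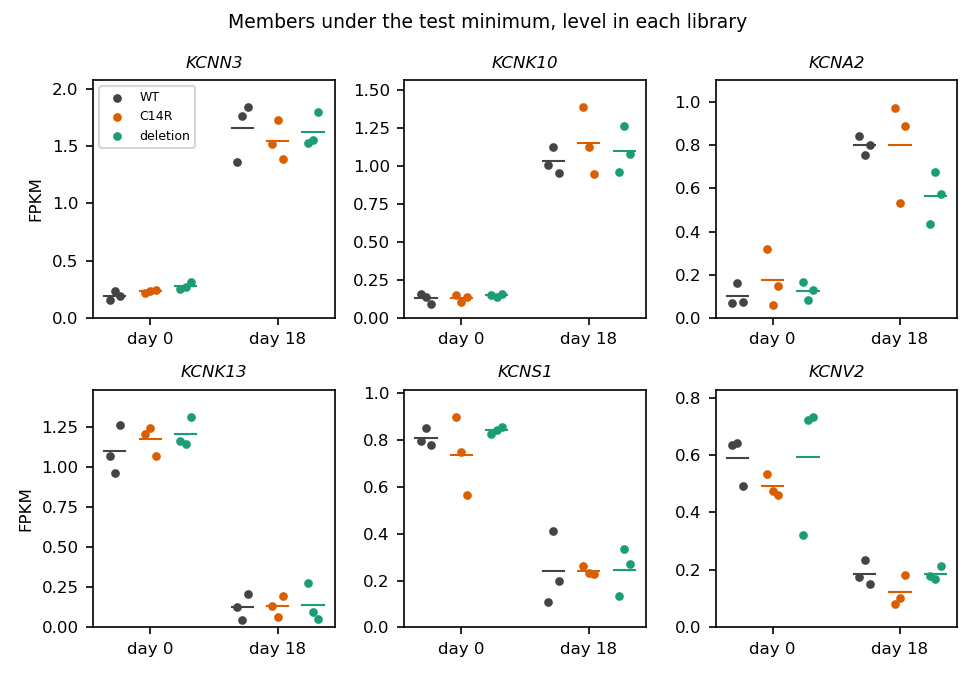
Each panel plots the FPKM of 1 scarce member on a linear axis from 0 against day, with 1 point per library, 1 colour per construct and a line at the mean of 3 libraries. KCNN3, KCNK10 and KCNA2 are higher and KCNK13, KCNS1 and KCNV2 lower at day 18 in every construct, with no overlap between the days in any of the 6.

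Channel partners and potassium transporters outside the KCN symbols were followed by a list of 30 genes, of which 19 were tested. In WT, 10 of the 19 were higher, 6 lower and 3 did not pass, where 38.2% of all genes were higher and 34.0% lower. The Kv4 partner proteins DPP6 and DPP10 rose by 2.29 (SE 0.07, adjusted p = 2.36e-14) and 1.71 on the log2 scale in WT, DPP6 from 3.69 ± 0.48 to 21.9 ± 0.96 FPKM (SD, n = 3). Their rise stood beside those of KCND1 and KCNIP2, but a joint rise of Kv4 genes and partners was not tested. KCNIP4, the most abundant KChIP gene, did not pass in any construct, although it passed in WT under some alternatives. Sodium pump subunits ATP1B1 and ATP1B2 rose by 2.09 and 1.67, and ATP1B1 reached 338 ± 5.17 FPKM from 78.6 ± 1.29 (SD, n = 3). HCN3, a channel opened by hyperpolarization, rose by 1.55. CNTNAP2, which gathers Kv1 channels beside the node of Ranvier, fell by 3.20 (SE 0.06, adjusted p = 1.44e-17), from 22.2 ± 0.66 to 1.53 ± 0.07 FPKM (SD, n = 3). C14R had 10 of the 19 higher and 6 lower (37.9% and 35.0% of all genes), and the deletion 9 and 6 (38.6% and 34.4%).

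The second question of the design is whether the constructs differ. C14R and the deletion were each compared with the same WT libraries, so those comparisons share their controls. No member passed the threshold in limma in any of the 6 comparisons between constructs or in either interaction of construct with day. At day 0, C14R against WT called 0 of the 37 members, 0 of them at an unadjusted p under 0.05, and 0% of all genes, of which 2.81% had an unadjusted p under 0.05. The deletion against WT at day 0 likewise gave 0 and 0, with 0.0290% of all genes called and 6.22% at an unadjusted p under 0.05. C14R against the deletion at day 0 gave 0, with 4 members (10.8%) and 9.84% of all genes at an unadjusted p under 0.05, and 0.0580% of all genes called. At day 18 the counts at an unadjusted p under 0.05 were 6 members (16.2%) for C14R against WT, 8 (21.6%) for the deletion against WT and 4 (10.8%) for C14R against the deletion. At the same unadjusted threshold the shares of all genes were 11.1%, 11.4% and 11.2%, while 0.0363%, 0.0725% and 0.0290% of all genes were called. The interaction of C14R with day had 3 members (8.11%) and 5.73% of all genes at an unadjusted p under 0.05, with 0% of all genes called. That of the deletion had 5 members (13.5%) and 7.36% of all genes at that threshold, with 0.0145% called. Since hardly any gene of the table passed in these comparisons, the absence of called members is close to the background. Standard errors of the 37 members lay between 0.06 and 0.16 on the log2 scale, and no member differed by more than 0.42 between constructs on 1 day. The smallest difference that 3 libraries a group could resolve therefore varied between members and was not worked out. A member without a call is not shown to be equal between constructs.

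KCNH1, the EAG1 gene, came closest to the threshold. At day 18 it read 13.6, 14.3 and 14.1 FPKM in WT, 18.5, 16.5 and 16.7 in C14R and 18.3, 16.3 and 16.6 in the deletion. All WT libraries lay under all libraries of both variants, which overlapped with each other. KCNH1 was 0.27 higher in C14R than in WT (SE 0.06, adjusted p = 0.121) and 0.26 higher in the deletion (SE 0.06, adjusted p = 0.133) on the log2 scale, and with array weights the deletion passed at an adjusted p of 0.0490. At day 0, where KCNH1 lay between 10.8 and 12.5 FPKM, the constructs overlapped.

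The largest log2 difference was that of KCNG1 in the deletion against WT at day 18, at 0.42 (SE 0.11, adjusted p = 0.185), with the 3 deletion libraries above the 3 WT libraries. KCNK3 differed by 0.20 in the same comparison and KCNIP4 by -0.23, and neither passed (adjusted p = 0.386 and 0.25). In C14R against WT at day 18, KCNQ5 differed by 0.27 (adjusted p = 0.258) and KCNJ8 by -0.22 (adjusted p = 0.258). Complete separation between the 3 deletion and 3 WT libraries at day 18 was seen for 14 of the 37 members, 10 higher and 4 lower, where 10.4% and 8.53% of all tested genes were so separated. For C14R against WT at day 18 it was 5 higher and 1 lower, against 5.44% and 5.64% of all genes. The KCNK3 difference between days was 0.37 larger in the deletion than in WT on the log2 scale (interaction, SE 0.12, adjusted p = 0.475).

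**Figure D5:**
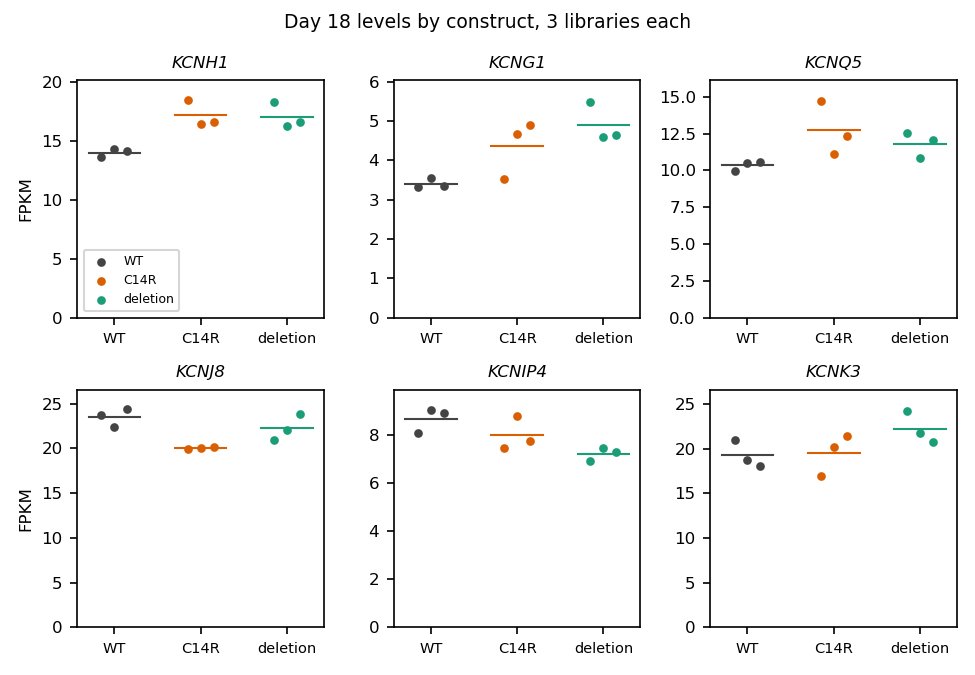
Each panel plots the day 18 FPKM of 1 gene on a linear axis from 0 against construct, with 1 point per library and a line at the mean of 3 libraries. KCNH1 and KCNG1 libraries of the deletion lie above those of WT, the KCNJ8 libraries of C14R lie below those of WT, and no difference shown passed the threshold.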

How the data were processed

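RNA-seq libraries of ribosomal RNA-depleted total RNA were prepared from 18 samples, per the labels' protocols, and grouped by construct and day from their titles. The authors deposited FPKM values, 1 column per library, with the unit taken from the table's name. The submitters' processing notes name TopHat2, STAR, Cufflinks 2.2.1 and the build hg38 with no role or order, and annotation and strand use are not given in the sources used here. FPKM carry no counts, so no counting interval is given.

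Values were tested as log2(FPKM + 1), a pseudocount of 1, with limma 3.58.1 in R 4.3.3. The model held 6 group means over 18 libraries with empirical Bayes moderation and a mean-variance trend. It was run on the 13785 genes with a mean FPKM of at least 1, and p-values were adjusted by Benjamini-Hochberg over all of them with a threshold of 0.05. The code was tested on simulated data. Alternatives were another pseudocount, other minima, 3 scalings, the replicate number as a block, no trend, array weights, only the libraries compared, a log2 change of at least 1 and each library left out.

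Full values were given for members past the threshold in WT with a log2 change of at least 1 and separated libraries, and for the most abundant member of each subfamily. Some genes that these rules select are not reported here, although all counts and sums include them. Of the partner list, members past the threshold in WT with a log2 change of at least 1 were named, and other members were named where they illustrate a class. The members, the partner list and the tests were chosen with earlier results of these data known. Coordinates and exonic overlaps come from GENCODE 29 on GRCh38 and promoters from RefSeq on GRCh38.p14, both matched by symbol. Proteins were not used here.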

Additional observations from a re-analysis of the deposited data

Results flagged for a closer look

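In 2 members the C14R and deletion libraries were completely separated in opposite directions on the 2 days, and the difference between days was not tested. Of all tested genes, 10.55% were separated with C14R higher and 10.74% with C14R lower at day 0. At day 18 these shares were 5.94% and 6.23%. How many of all genes were separated in opposite directions on the 2 days was not counted. KCNQ1 was higher in C14R than in the deletion at day 0, by 0.214 on the log2 scale, and lower at day 18, by a difference of -0.1924. KCNC1, a Kv3 gene, had differences of 0.0828 at day 0 and -0.12 at day 18. Its separation at day 18 was narrow, with the highest C14R library at 4.164 FPKM and the lowest deletion library at 4.170. None of these differences passed the threshold on its own day.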

How the results depend on the processing

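Counts of members that were lower depended on the minimum, because scarce members enter the fit. With no filter, a mean of at least 0.1, and that minimum with a pseudocount of 0.1, the lower counts were 12, 10 and 11 in WT, 15, 15 and 16 in C14R, and 12, 11 and 14 in the deletion. The minimum of 0.1 added 28 members to the 37 tested, and no filter added 52. Higher counts rose too, to at most 35 in WT, 33 in C14R and 38 in the deletion over the alternatives that kept all libraries. The shares of all genes called under these settings are not given, so these counts have no background beside them. With a log2 change of at least 1, the counts were 8 higher and 1 lower in WT, 9 and 1 in C14R, and 11 and 1 in the deletion. Leaving out 2369 small RNA genes and rescaling gave 3 lower in the deletion and moved the all-gene median log2 difference in WT from 0.03 to 0.21. Higher genes went from 52.9% to 68.7% of all called genes, while members went from 86.7% to 88.2%. In C14R all genes went from 52.0% to 66.5% and members from 80.7% to 86.2%, and in the deletion from 52.8% to 69.5% and from 84.4% to 90.0%. With each library left out in turn, the counts ranged from 23 to 27 higher and 4 to 4 lower in WT, 22 to 25 and 4 to 7 in C14R, and 25 to 27 and 4 to 5 in the deletion. Array weights called 1 member, KCNH1, in the deletion against WT at day 18. All other comparisons of constructs kept 0 called members under every alternative that was run. The KCNIP4 difference changed sign in C14R to -0.0335 (median-of-ratios scaling), -0.0235 (quantile normalization) and -0.0107 (array weights), and ranged from -0.0607 to 0.0474 with a library left out. In the deletion it was 0.1055 after rescaling. The cause of these changes was not tested. Calls of KCNC1, KCNG3 and KCNAB2 in WT, of KCNC1, KCNG3, KCNAB3, KCNK1 and KCNIP1 in C14R, and of KCNMB3, KCNAB2, KCNK1, KCNT1 and KCNIP1 in the deletion were lost under some alternatives. Calls gained under some were those of KCNMB3, KCNIP4, KCNJ2 and KCNJ14 in WT, of KCNJ13 and KCNAB2 in C14R, and of KCNJ13 and KCNAB3 in the deletion. In WT KCNIP4 passed with rescaling (0.324), array weights (0.1542) and without the WT libraries of day 0 replicate 2 (0.1918) or day 18 replicate 1 (0.1827). With the replicate number as a replicate block, 24 members were higher and 4 lower in WT, 25 and 7 in C14R, and 27 and 5 in the deletion. Deviations of same-numbered libraries correlated between -0.363 and 0.168, with 6 of 45 pairs over 0.1. For libraries of different number it was 19 of 90 pairs, with a highest correlation of 0.268. No pairing by number was seen in these values, and whether same-numbered libraries were handled together is not known. The unknown depth limits what can be said of members under 0.1 FPKM.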
